A study of Homo sapiens with 6 samples.

Results

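IFI44, IFI44L, IFIT1, IFIT2, IFIT3, IFIT5, OAS1, OAS2, OAS3 and OASL are interferon-induced genes whose proteins mostly bind or sense RNA. They were taken by gene symbol and make up 10 of the 20308 genes measured in LNCaP-AI cells. They were put together with their lower levels in METTL1-silenced cells already known, so the differences between groups given for them are descriptions. Calls on them from tests run over all genes are given further on, but cannot serve as independent evidence. All 10 had a lower mean level in shMETTL1 cells, from IFI44 at 3.14% of its shscramble level to OAS3 at 71.8%, and IFI44L was listed at 0 in every shMETTL1 library.

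Type I and type III interferons bind receptors that activate the JAK1 and TYK2 kinases. Transcription factors activated by these kinases then bind the interferon-stimulated response element, a short DNA motif built of GAAA repeats, and switch on many genes, of which these are classic examples. IFIT proteins hold RNA ends that carry marks of foreign RNA, OAS enzymes sense double-stranded RNA and make 2-5A, a messenger that triggers RNA decay, and IFI44 and IFI44L are cytoplasmic proteins whose biochemical role is less settled. Tumour cell lines differ widely in how much of this set they express without added interferon.

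LNCaP-AI is an androgen-independent prostate cancer line that stands in for castration-resistant prostate cancer (CRPC). All cells, controls included, were kept under androgen deprivation. The shMETTL1 group (METTL1 knockdown) carried a stable construct against METTL1, which encodes a methyltransferase that places N7-methylguanosine on RNA, and the shscramble group carried a control construct. The labels name no other construct against METTL1, so effects of METTL1 loss and of this construct itself cannot be told apart. Each group had 3 libraries of total RNA. The methods of the study speak of biological replicates for all data, the labels do not say whether these libraries came from separate cultures, whether the lines were clones is not given in the sources used here, and any p-value measures the spread between these libraries. METTL1 stood at 13.9, 18.5 and 21.0 FPKM (fragments per kilobase of transcript, scaled to library depth) in the shscramble libraries and at 8.35, 10.5 and 8.18 in the shMETTL1 libraries, or 50.7% of control (exact two-sided permutation test, p = 0.1, the smallest that 3 libraries against 3 can give).

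The libraries were shallow for genes at this level. The estimated counts proved to be whole fragments multiplied by a factor that was constant within a library, and dividing it out gave 3627523, 4085283 and 3729206 fragments in the shscramble libraries and 2650802, 3402937 and 3595634 in the shMETTL1 libraries. Of the values above 0, 91.7% to 92.9% in each library were then whole within 0.1 fragment. The 9 luminal prostate markers listed, among them KLK3 and KRT8, had means of 29.5 to 1189 FPKM in shscramble cells, of which KLK2 was called lower in shMETTL1 cells by limma and KLK2, KLK3 and TMPRSS2 by edgeR. Of the markers of other cell types, PTPRC, CD3E and TYROBP of leukocytes, DCN and LUM of fibroblasts and CDH5 and KDR of endothelium were listed at 0 in all 6 libraries, and LYZ had no fragment. The fibroblast collagen COL1A1 was present, at 10.1 ± 3.01 FPKM in shscramble and 8.14 ± 3.12 in shMETTL1 cells on 9 to 26 fragments a library, and COL1A2, COL3A1, PDGFRB, CD14 and VWF each had 9 fragments or fewer in any library. The summed fibroblast markers ran from 7.94 to 13.7 FPKM in control and from 5.31 to 11.2 in shMETTL1 libraries, and the endothelial ones were at most 0.219 FPKM. The summed level of the 6 leukocyte markers was 11.8 to 16.8 FPKM in shscramble and 6.43 to 8.11 in shMETTL1 libraries, almost all of it CD68, a lysosomal protein also made by epithelial cells. The part of these markers in the results was not tested. In these bulk samples, fewer cells that express a gene and less of its RNA per cell cannot be told apart.

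The promoters are shown because the letters of the response element recur in them. The motif searched was GAAANNGAAA on both strands, which reads as TTTC repeats on the other strand, in RefSeq promoter windows (GRCh38.p14) from 250 bases before to 50 bases after each transcription start. Windows were found for 7 of the 10 genes, with a pair of starts each for IFI44 and IFIT3, and IFIT2, OAS2 and OASL were not analysed here. At least 1 match lay in the windows of 6 of these 7 genes and 5 of them had at least 2 matches in a window, whereas 3.57% of all 35116 windows held a match and 0.259% held at least 2. Among the other interferon-induced effectors with a window, 30 of 42 (71.4%) had a match. Members and effectors are counted by gene, some with more than 1 window, whereas the shares of all are by window. The 2 matches of IFI44L lie in copies of the same stretch of letters. IFIT5 had 3 matches, and 0.037% of all windows held 3 or more. OAS1 had none at the searched gap of 2 bases, but its window held GAAA repeats 1 base apart, a spacing that was not searched. The stretches around the matches nearest the start, for IFIT3 its upstream start, are given 5′ to 3′ on the plus strand, which is the strand of all these genes, with the matches in capitals.
IFI44, chr1:78649746-78649788: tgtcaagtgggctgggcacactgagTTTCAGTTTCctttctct
IFI44L, chr1:78620350-78620409: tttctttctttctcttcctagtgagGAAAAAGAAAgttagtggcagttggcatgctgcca
IFIT1, chr10:89392482-89392554: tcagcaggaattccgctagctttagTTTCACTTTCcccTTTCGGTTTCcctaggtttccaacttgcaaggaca
IFIT3, chr10:89327816-89327909: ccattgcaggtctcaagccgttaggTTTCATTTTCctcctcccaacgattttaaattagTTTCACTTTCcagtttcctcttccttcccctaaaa
IFIT5, chr10:89414498-89414573: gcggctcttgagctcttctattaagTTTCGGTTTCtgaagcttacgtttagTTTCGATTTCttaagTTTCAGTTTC
OAS3, chr12:112938437-112938473: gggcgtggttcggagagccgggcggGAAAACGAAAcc
A match describes letters only, and binding was not measured.

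**Figure D1:**
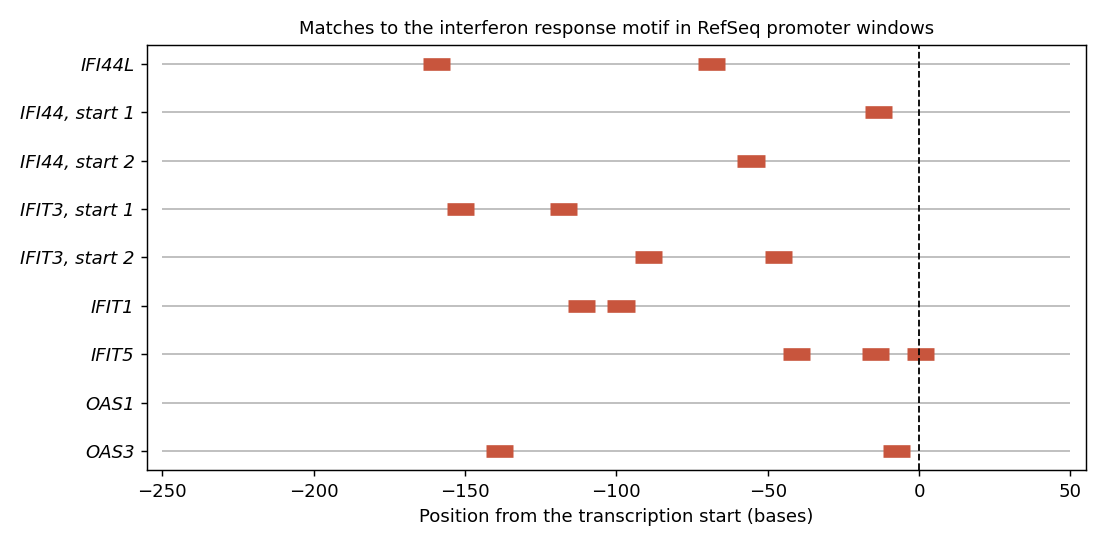
Matches to the response element motif, drawn as red blocks along RefSeq promoter windows that run from 250 bases before to 50 bases after each transcription start (x axis, bases; dashed line, start). IFIT5 holds 3 matches close to its start, IFIT1 holds 2, and the OAS1 window holds none at the gap of 2 bases that was searched.

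IFI44 and IFI44L lie side by side on chromosome 1 (GENCODE v29, GRCh38, 78619922 to 78664078, plus strand). IFI44 was the highest of the 10 genes in control cells and among the lowest after silencing. Its level was 9.07, 8.83 and 10.9 FPKM in shscramble replicates 1, 2 and 3, and 0, 0.288 and 0.616 FPKM in shMETTL1 replicates 1, 2 and 3. The groups did not overlap. These values rested on 38, 45 and 46 fragments against 0, 1 and 1. Pooled over libraries, the fragment rate in shMETTL1 cells was 1.84% of control, with a 95% exact counting interval from 0.22% to 6.78% that covers counting error only. IFI44L was barely detected: 6 fragments in shscramble replicate 1 (0.416 FPKM) and none in the other 5 libraries, so no fold is given for it.

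The 4 IFIT genes form a cluster on chromosome 10 (89283694 to 89421001, all on the plus strand, in the order IFIT2, IFIT3, IFIT1, IFIT5), and the share of the control level left in shMETTL1 cells ranged widely among them. IFIT2, IFIT3 and IFIT1, whose proteins assemble with each other on RNA, stood at 15.5%, 25.9% and 17.8% of their control FPKM. IFIT5, which binds RNA on its own, stood at 51.6%. IFIT2 was 5.76, 5.84 and 8.39 FPKM in the shscramble libraries and 1.04, 1.25 and 0.808 in the shMETTL1 libraries. IFIT2 had the most fragments of the family, 316 against 40, and its log2 fold change was -2.22 (SE 0.30) on the log2(FPKM + 0.5) scale. Every shMETTL1 library was below every control library for this gene, and the group means were further apart than the spread within either group.

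IFIT3 was the steadiest of the 10 genes in control cells, with 1.95, 1.99 and 2.04 FPKM, and it had 0.417, 0.645 and 0.493 FPKM in shMETTL1 cells. IFIT1, which recognises cap structures without ribose methylation, varied more: 4.22, 3.10 and 1.92 FPKM in control and 0.939, 0.436 and 0.265 in shMETTL1 cells. Neither gene's groups overlapped, although the lowest IFIT1 control value, in replicate 3, was well under that in replicate 1. Their pooled fragment rates were 25.2% (95% counting interval 13.0% to 45.2%) and 16.0% (7.38% to 31.2%) of control, from 66 against 14 and 74 against 10 fragments.

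For IFIT5 the size of the difference depended on the measure. Its FPKM was 2.98, 2.60 and 2.63 in shscramble and 1.55, 1.70 and 0.987 in shMETTL1 libraries, with no overlap. Its fragments were 24, 28 and 31 against 19, 15 and 17, and scaled to depth, as fragments per 1000000 (FPM), the groups overlapped, at 7.26 ± 0.919 against 5.43 ± 1.51 (SD, n = 3 each). The pooled fragment rate was 72.9% of control with a counting interval from 50.4% to 104%, which includes no difference. That interval lay above those of IFIT1, IFIT2 (10.5% to 20.9%) and IFIT3. These intervals cover counting error only and leave out the spread between libraries, so they do not test a difference between the genes.

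**Figure D2:**
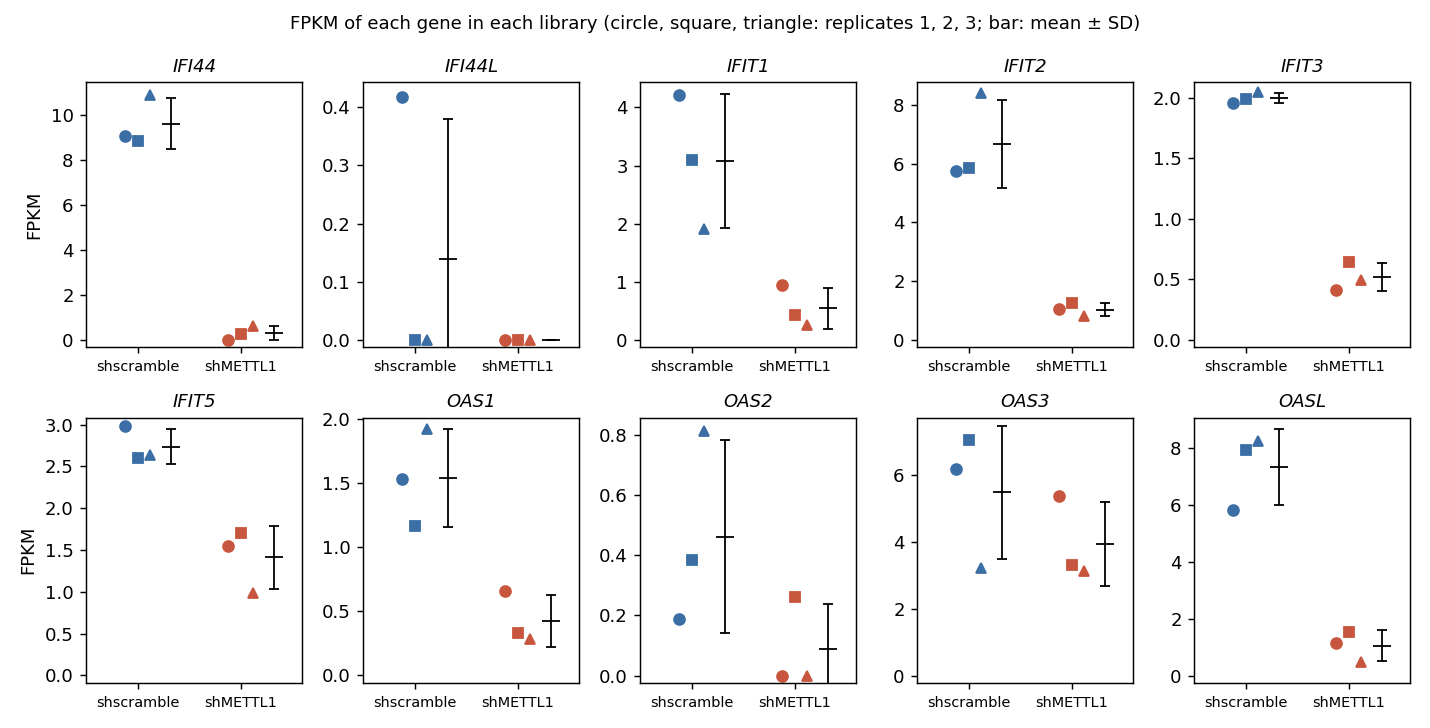
FPKM of the 10 genes in each library, 1 panel per gene with its own y axis; blue points are shscramble and red points shMETTL1 libraries, marker shapes are replicates 1 to 3, and black bars are mean ± SD (n = 3). The groups are apart for IFI44, IFIT1, IFIT2, IFIT3, IFIT5, OAS1 and OASL and overlap for OAS3, OAS2 and IFI44L.

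Among the OAS genes on chromosome 12, OASL and OAS1 were lower in every shMETTL1 library, and OAS3 was not. OASL (121019111 to 121039242, minus strand) resembles the OAS enzymes but lacks synthetase activity and takes part in RIG-I signalling. It was 5.80, 7.94 and 8.22 FPKM in shscramble and 1.17, 1.55 and 0.472 FPKM in shMETTL1 libraries. Among the 10 genes, only IFI44 and the barely detected IFI44L kept a lower share of their control FPKM than OASL, which kept 14.5%. Its 198 against 23 fragments gave 13.8% (counting interval 8.53% to 21.3%).

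OAS1, OAS3 and OAS2, the active synthetases, follow each other on the plus strand of chromosome 12 from 112906777 to 113011723. OAS1 was 1.54, 1.17 and 1.93 FPKM in control and 0.660, 0.332 and 0.288 in shMETTL1 libraries, which did not overlap. That rested on 24 against 7 fragments in all, and the pooled rate of 34.6% of control had a counting interval from 12.6% to 82.7%. OAS2 was near the limit of detection, with 7 fragments over the 3 control libraries (0.187, 0.385 and 0.813 FPKM) and 2 fragments over the 3 shMETTL1 libraries, both in replicate 2 (0.26 FPKM), and its counting interval from 3.43% to 178% allows a difference in either direction.

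OAS3, the synthetase most sensitive to long double-stranded RNA, had the most fragments of the 10 genes over the libraries of either group and, by FPKM, the largest share of its control level left. It was 6.17, 7.04 and 3.24 FPKM in shscramble libraries and 5.37, 3.32 and 3.12 FPKM in shMETTL1 libraries. Control replicate 3 lay among the shMETTL1 libraries and shMETTL1 replicate 1 among the controls, so the groups overlapped. By fragments, OAS3 stood at 66.8% of control, from 419 against 236, with a counting interval from 56.7% to 78.5%, but in FPM the groups overlapped too. OAS1 kept 27.6% and OAS3 71.8% of its control FPKM, but by fragments the counting interval of OAS1 contained that of OAS3.

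**Figure D3:**
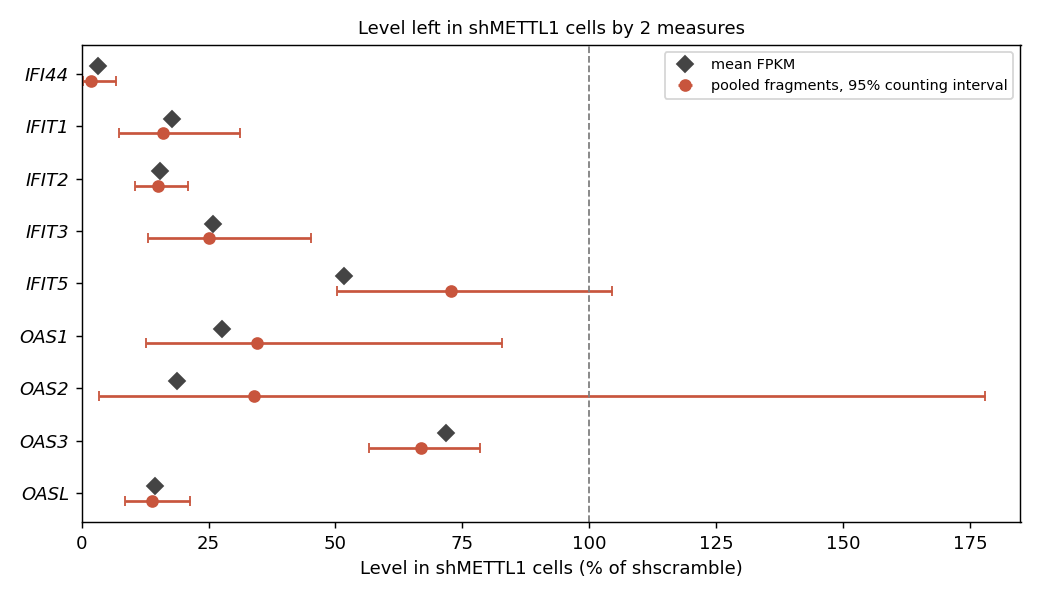
Level in shMETTL1 cells as a percentage of shscramble cells (x axis; dashed line, 100%) by mean FPKM (grey diamonds) and by fragments pooled over 3 libraries per group (red circles, bars give the 95% counting interval). IFI44, OASL, IFIT2, IFIT1 and IFIT3 lie at or below 25.9% by both measures, while the intervals of IFIT5 and OAS2 reach past 100%. IFI44L is not drawn, since it had no fragment in shMETTL1 cells.

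The number of fragments behind 1 FPKM, which depends on the transcript length assigned to a gene, was fixed for some members and not for others. The estimated count behind 1 FPKM was nearly constant over libraries for IFIT1 (7.24 to 7.37), IFIT2 (14.4 to 14.5), IFIT3 (9.79 to 10.04) and OASL (8.15 to 8.28), so either measure gives the same picture for these genes. For IFIT5 it ran from 7.52 to 16.8, with a mean of 9.28 in shscramble and 14.3 in shMETTL1 libraries. For OAS1 it ran from 4.26 to 6.79 and was higher in each shMETTL1 library than in any control, and for OAS3 it ran from 19.0 to 28.8 with the groups mixed. For IFI44 it was 3.92 to 4.42 in control, and 3.67 and 1.59 in the shMETTL1 libraries that held 1 fragment each. FPKM divides by this length, so part of the FPKM difference of IFIT5 and OAS1 is a difference in assigned length and not in fragments.

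**Figure D4:**
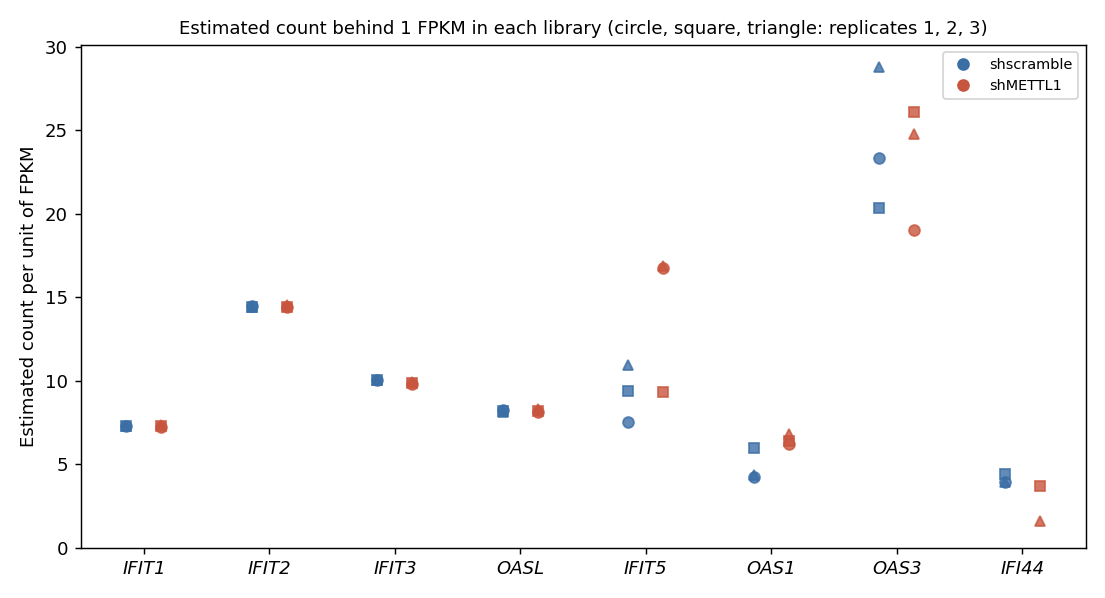
Estimated count behind 1 unit of FPKM (y axis) for 8 genes in each library; blue is shscramble, red is shMETTL1, and marker shapes are replicates 1 to 3. IFIT1, IFIT2, IFIT3 and OASL sit on single values, whereas IFIT5 spreads from 7.52 to 16.8.

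The order of the levels changed between the groups. In control cells, by mean FPKM, IFI44 (9.59 ± 1.12) came first and did not overlap OASL (7.32 ± 1.32). OASL, IFIT2 (6.66 ± 1.496), OAS3 (5.48 ± 1.99), IFIT1 (3.08 ± 1.15) and IFIT5 (2.74 ± 0.213) followed, each overlapping the next, and then IFIT3 (2.00 ± 0.0446), OAS1 (1.54 ± 0.381) and OAS2 (0.462 ± 0.32), which did not overlap their neighbours above them. In shMETTL1 cells OAS3 came first, at 3.94 ± 1.24 FPKM, above IFIT5 at 1.41 ± 0.376 with no overlap, and from IFIT5 downwards each gene overlapped the next. IFI44 had dropped from first to eighth place, at 0.301 ± 0.308 FPKM (all SD, n = 3).

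Summed over the 10 genes, the level was 117, 115 and 115 FPM in the shscramble libraries and 46.4, 41.1 and 33.9 FPM in the shMETTL1 libraries. Without OAS3 the sums were 74.98, 74.2 and 88.0 against 18.1, 17.0 and 12.0. OAS3 alone supplied 36.2%, 35.3% and 23.4% of these fragments in control and 61.0%, 58.6% and 64.8% in shMETTL1 libraries. Fragments give long transcripts more weight, and by FPKM the share of OAS3 was 8.08% to 18.1% in control and 34.0% to 48.2% in shMETTL1 libraries.

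The share of members past a threshold is given only beside the share of all genes, because the members were chosen on this contrast. By FPKM, 8 of the 10 had a mean of at least 0.5 and were tested, IFI44L and OAS2 were not, and the 8 had a median log2 fold change of -1.54 against 0.02 over all 12156 genes tested. Lower groups without overlap were found for 7 of the 10 members and for 9.33% of all genes tested. Of the 8 tested, 2 (IFI44 and IFIT2) were called lower by limma at an adjusted p under 0.05, as were 0.074% of all genes tested. The quasi-likelihood test of edgeR on the recovered fragments called 5 of 7 members it tested (IFI44, IFIT1, IFIT2, IFIT3 and OASL), as it did 3.55% of all genes in that direction. These counts turn on single libraries: limma called no member without shscramble replicate 1 or 3, 1 without each of the shMETTL1 libraries and 3 without shscramble replicate 2, and edgeR called 3 without shMETTL1 replicate 2 or 3 and 4 or 5 without each of the others.

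The rest of the interferon pathway, given from lists by role, showed no change called by limma in either direction (0 of 63 genes, of which 3 with higher and 3 with lower values had an unadjusted p below 0.05), beside 0.123% of all genes tested called in either direction. The edgeR test on recovered fragments called 5 of 53 (9.43%), 3 lower and 2 higher (9 lower and 3 higher at an unadjusted p below 0.05), beside 6.16% of all genes tested in either direction. The median log2 fold change of the pathway genes was -0.06 by limma and -0.10 by edgeR. That test was added after the data had been seen, and leaving out 1 library left between 2 and 5 of these calls.

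No interferon on the list was detected. All 9 interferon genes listed, IFNA1, IFNA2, IFNB1, IFNE, IFNK, IFNG, IFNL1, IFNL2 and IFNL3, stood at 0 in all 6 libraries. Of the 9 receptors and kinases listed, 8 were present and tested, and none was called by either tool. The remaining one, IFNLR1, a chain of the type III receptor, was listed at 0 in all 6 libraries. IFNAR1, a chain of the type I receptor, was 12.5 ± 1.88 FPKM in control and 14.6 ± 0.488 in shMETTL1 cells, and TYK2 was 23.4 ± 7.04 and 32.6 ± 12.9.

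The transcription factors that act on the response element were expressed in both groups without a call, 8 tested by limma and 7 by edgeR. STAT2 was 23.4 ± 2.52 FPKM in shscramble and 17.8 ± 3.62 in shMETTL1 cells (adjusted p = 0.394 by limma). IRF3 had 40.9 ± 12.3 and 56.9 ± 12.7 FPKM, and IRF7 4.93 ± 0.966 and 6.73 ± 1.15. Each of these overlapped between the groups. USP18, an interferon-induced protease that dampens receptor signalling, was 4.54 ± 0.949 FPKM in control and 4.99 ± 1.30 in shMETTL1 cells, and neither it nor the other feedback inhibitors tested, PIAS1 and PTPN2, was called.

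**Figure D5:**
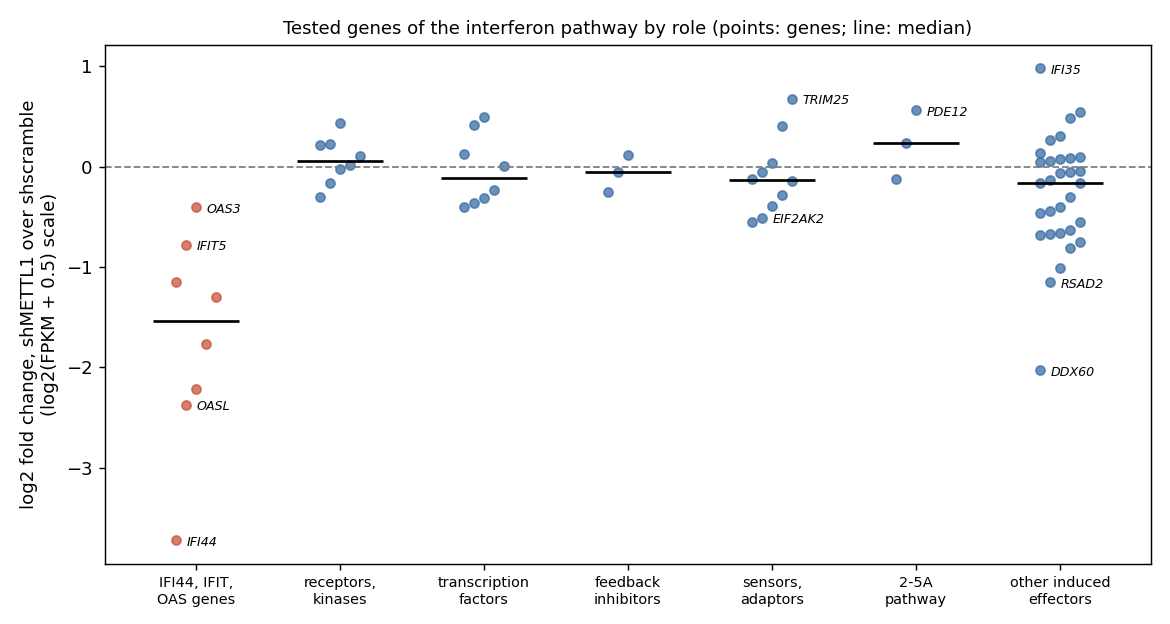
Log2 fold change of shMETTL1 over shscramble on the log2(FPKM + 0.5) scale (y axis) for every tested gene, grouped by role; points are genes and black lines medians. The tested IFI44, IFIT and OAS genes have a median of -1.54, whereas each other role has a median between -0.16 and 0.23. The members were chosen for this difference.

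Of 7 RNA and DNA sensors and adaptors tested by edgeR on recovered fragments, 1 was called higher and 1 lower. TRIM25, a ubiquitin ligase that activates RIG-I, rose by 0.71 on the log2 scale (adjusted p = 0.00117 by edgeR, 0.159 by limma), from 41.1, 42.3 and 33.8 FPKM to 76.7, 56.0 and 56.6. EIF2AK2 (PKR), the kinase that halts translation on double-stranded RNA, fell by 0.56 on the log2 scale (adjusted p = 0.0254 by edgeR, 0.259 by limma), from 25.5 ± 1.73 to 17.8 ± 2.68 FPKM. Neither gene's groups overlapped. RIGI was 5.01 ± 1.10 FPKM in control and 3.22 ± 0.367 in shMETTL1 cells and passed neither test. IFIH1 (MDA5), whose promoter window held 3 matches to the motif, was 5.88 ± 1.26 and 4.73 ± 0.969 FPKM, with overlap.

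Downstream of the OAS enzymes, ABCE1, which dampens the 2-5A response, was 49.3 ± 14.3 FPKM in control and 56.6 ± 4.38 in shMETTL1 cells. PDE12, which degrades 2-5A, was 6.73, 10.7 and 6.62 FPKM in control and 10.9, 12.2 and 12.2 in shMETTL1 cells. It rose by edgeR, with a log2 fold change of 0.46 (adjusted p = 0.0481), which limma did not call (adjusted p = 0.342).

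Of the other interferon-induced effectors, 31 were tested by limma, of which 20 had a lower and 11 a higher value in shMETTL1 cells and none was called. Of the 25 tested by edgeR on recovered fragments, 2 (8.0%) were called, both lower, beside the 3.55% of all genes called in that direction, and 7 were lower and 0 higher at an unadjusted p below 0.05, with a median log2 fold change of -0.20. DDX60, a helicase that assists RIG-I, had the lowest log2 fold change of the pathway genes tested. It had 1.77, 3.10 and 2.01 FPKM in control and 0.053, 0.082 and 0.436 in shMETTL1 cells, on 49, 36 and 38 against 1, 2 and 2 fragments, and its log2 fold change was -4.31 by edgeR (adjusted p = 0.000191) and -2.03 by limma (adjusted p = 0.109). PARP14, an ADP-ribosyltransferase, fell by 1.27 on the log2 scale by edgeR (adjusted p = 0.0256) and overlapped in FPKM.

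RSAD2 (viperin) was 2.70, 3.98 and 3.03 FPKM in shscramble and 1.68, 0.741 and 1.20 in shMETTL1 libraries without overlap, yet it passed neither test (adjusted p = 0.205 by limma, 0.0918 by edgeR). NMI was 1.52 ± 0.497 and 0.545 ± 0.447 FPKM. IFI35, its binding partner, was 1.98 ± 1.08 and 4.21 ± 1.19 FPKM, which is the opposite direction, but its groups overlapped. The fragments of IFI35 were 3, 16 and 2 in control against 7, 6 and 8 in shMETTL1 libraries, with means of 1.76 and 2.21 FPM. Limma called neither gene, and edgeR on recovered fragments did not test them. MX1 was 1.22, 1.63 and 1.78 FPKM in control and 0.833, 1.902 and 0.164 in shMETTL1 libraries, which overlapped, and ISG15 was 16.8, 18.1 and 8.43 against 18.5, 13.1 and 14.3.

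The motif occurred in genes with and without a call. Of the pathway genes outside the members tested by edgeR, 19 had a match in a promoter window, of which 3 were called lower and none higher. Of the 25 with a window and no match, none was called lower and 2 were called higher. The median log2 fold changes were -0.28 and -0.06. Over all genes tested, edgeR called 3.55% lower and 6.16% in either direction. Tested pathway genes without a promoter window are in neither set. The split by match was in large part a split by role. No receptor or kinase, transcription factor or 2-5A gene with a window had a match, whereas 30 of 42 other interferon-induced effectors did. Whether the motif matters apart from role was not tested. The 3 lower genes with a match were DDX60, PARP14 and EIF2AK2, whereas MX1, ISG15 and IFIH1 had a match and no call. Among those 3, only DDX60 was called whichever library was left out.

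None of the neighbouring genes named here, the nearest tested protein-coding genes at any distance, was called by limma. The IFIT cluster lies within and beside the span of LIPA, a lysosomal lipase gene on the opposite strand that covers IFIT1, IFIT2 and IFIT3, and the strand setting of the libraries is not given in the sources used here, so fragments of overlapping exons could not be told apart. LIPA stood at 27.6 ± 5.91 FPKM in control and 31.6 ± 1.45 in shMETTL1 cells. On the other side of the cluster, PANK1 was 11.5 ± 3.59 and 25.7 ± 1.84 FPKM (adjusted p = 0.0885 by limma, 0.0444 by edgeR), higher in shMETTL1 cells. The nearest tested neighbours of the OAS cluster, PTPN11 (66.7 ± 4.88 and 72.4 ± 5.34) and DDX54 (59.6 ± 13.2 and 59.5 ± 11.3), were not called by either tool. Nor were DNAJB4 and ADGRL2, on either side of IFI44L and IFI44, or P2RX4 after OASL. DNAJB4 and ADGRL2 were not adjacent to that pair. DNAJB4 ended at 78017964 and ADGRL2 started at 81306160, whereas IFI44L and IFI44 span 78619922 to 78664078.

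Over the 6 libraries, the genes whose log2(FPKM + 0.5) most resembled the mean of the 8 tested members, among 11534 genes with a mean of at least 1 FPKM, were ACVR2B, BTBD3, IPMK, ZDHHC13, SLITRK6 and PRKAA2, with Pearson's r between 0.992 and 0.998. None of them is on the interferon lists. All were lower in shMETTL1 cells, SLITRK6 for example at 270.2 ± 22.4 and 68.8 ± 2.19 FPKM and ACVR2B at 5.98 ± 0.283 and 2.42 ± 0.291, and with 3 libraries per group such values of r mainly reflect the shared difference between the groups.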

How the data were processed

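Reads were handled, per the labels' processing notes, which give no role or order, with HISAT2 2.0.4, cutadapt 1.9.3, Cuffdiff and Cufflinks on build hg19, and libraries followed standard Illumina protocols. The authors deposited an FPKM value and an estimated count per gene and library, and 95.7% of the identifiers were paired with a symbol. The deposited estimated counts were divided by a factor found for each library to recover whole fragments. The main test was limma 3.58.1 (trend, robust prior) in R 4.3.3 on log2(FPKM + 0.5) for genes averaging 0.5 FPKM or more, with Benjamini-Hochberg adjustment and a threshold of 0.05. Fold changes on this scale understate those of low genes. Because the files also held counts, edgeR 4.0.16 (quasi-likelihood) and DESeq2 1.42.0 were run on rounded estimated counts and edgeR on recovered fragments. Named genes were the members, METTL1, and in each role list those called by limma or the 4 with the smallest p. PARP14, MX1, ISG15 and the neighbouring genes were named after their values were seen. Some genes that these rules named are not reported here. The likeness rule took the 6 highest correlations. The members and lists were chosen with earlier results of these data known. The statistics were tested on simulated data. Coordinates are from GENCODE v29 (GRCh38), not the files' build.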

Additional observations from a re-analysis of the deposited data

How the results depend on the processing

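The 8 tested members kept their lower direction under every alternative that gave them a value. In place of 2 members, limma called 1 with the replicate block and 1 without the filter on low values. The 15 genes called by limma became 4 without the filter on low values, 712, 709 and 1094 by edgeR on estimated counts (TMM, RLE and no filter), 713 by DESeq2 and 693 by edgeR on recovered fragments. The 0 interferon pathway genes outside the members called by limma became 5, 5, 6, 4 and 5 under these count tests in the same order. Leaving out 1 library in turn gave 3 to 189 genes by limma, the highest without shscramble replicate 2, and 0 pathway genes throughout. With edgeR on recovered fragments it gave 443, 2038 and 255 genes without shscramble replicate 1, 2 and 3 and 281, 273 and 293 without shMETTL1 replicate 1, 2 and 3, and 2 to 5 pathway genes. DDX60 and TRIM25 were called in all 6 of these, EIF2AK2 and PDE12 only without shscramble replicate 2, and PARP14 only without shscramble replicate 2 or shMETTL1 replicate 1. IFITM3 was called lower only without shscramble replicate 1, and also by edgeR on estimated counts with no filter. METTL1 lay between 45.7% and 55.8% of control when 1 library was left out and at 39.0% by estimated counts. Same-numbered libraries deviated from their group means with correlations of 0.0024, 0.053 and -0.024. These values show no pairing by number, but they cannot exclude one. With the replicate number as a block, limma called 6 genes and 0 pathway genes, and edgeR on recovered fragments 975 and 5.

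Some genes without a call changed sign. In log2, IFNAR1 was -0.0531, -0.0535, -0.0457 and -0.0502 by edgeR on estimated counts (TMM, RLE, no filter) and DESeq2, -0.0559 on recovered fragments and -0.051 there with the block, and IRF3 was -0.0751, -0.0755, -0.0677, -0.0716, -0.0723 and -0.0719 in the same order. Leaving out 1 library gave IL10RB -0.516 to 0.0954, USP18 -0.0658 to 0.26 and PTPN2 -0.157 to 0.0438. The causes were not tested. Of 147 values for members, 43 moved by more than the spread between replicates, among them IFI44 from -5.93 (DESeq2) to -3.05 (pseudocount of 1). Depth limits IFI44L, OAS1 and OAS2, which had at most 9 fragments in any library.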
